A study of Antirrhinum majus with 21 samples.

Results

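The comparison set 3 corolla libraries of the snapdragon genotype ROSpse_ELstr against 3 of ROSji7_ELstr. These are 6 of the 21 libraries of the series, and they were chosen by their labelled alleles, with no measured value used. ROSpse_ELstr plants carried the dominant ROS allele of *A. m. pseudomajus*, a wild magenta snapdragon, and belonged to plant family A174. ROSji7_ELstr plants carried the dominant ROS allele of *A. majus* stock line JI7 and belonged to family A172. Both genotypes carried the dominant EL allele of *A. m. striatum*, a wild yellow snapdragon, and both are labelled eluta in corolla colour. The labelled difference is therefore the source of the ROS allele. Each genotype came from a family of its own, so ROS allele, family and whatever else the families inherited cannot be told apart, and the labels give no zygosity. For comparison, the magenta genotypes ROSpse_elpse and ROSji7_elji7 carried dominant ROS and recessive EL, both of *pseudomajus* or both of JI7. The pale rosrec_elpse carried a ROS recombinant, *striatum* upstream and *pseudomajus* downstream, with the recessive EL of *pseudomajus*. The white rosstr_ELstr joined a recessive ROS allele of *striatum* to its dominant EL, and the white rosdor_eldor carried recessive alleles of stock line rosea-dorsea at both loci. Each library was made from the corolla of a bud 5 to 10 mm long, at stage 12 to 13, from 1 plant.

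In snapdragon, ROSEA (ROS) encodes MYB transcription factors that switch on anthocyanin pigment synthesis in the corolla, and ELUTA (EL) is a linked locus whose dominant alleles confine the magenta colour to a small area of the flower face. Anthocyanins are made from phenylpropanoid precursors by a chain of enzymes that begins with chalcone synthase, and MYB factors act on the promoters of these enzyme genes. The pigment gene list and the cell type markers drawn up for this comparison could not be read, because the files pair no gene ID with a name, so genes are given below by ID and position. The corolla label could not be checked against marker genes for the same reason.

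The 3 ROSpse_ELstr libraries held 17763434, 26025668 and 26452118 estimated reads, and the 3 ROSji7_ELstr libraries 30796173, 28184330 and 34105664. Within genotypes, Spearman's rho between replicates across genes was 0.958 to 0.978, and their counts differed beyond sampling noise (chi-square over degrees of freedom, 30.7 to 79.9). On the first principal component, ROSpse_ELstr replicate 1 lay at 65.6 and its replicates 2 and 3 at -25.3 and -9.28, while the ROSji7_ELstr libraries lay at -29.8, -49.3 and 9.57. ROSpse_ELstr replicate 1 and ROSji7_ELstr replicate 3 also have library numbers below 3000, a low series apart from the middle one of the other 4. Levels are given as CPM (reads of a gene scaled to a common library size) in the order of replicates 1, 2 and 3, and log2 fold changes are ROSpse_ELstr over ROSji7_ELstr.

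Corollas of the ROSpse_ELstr genotype differed from those of ROSji7_ELstr in 150 of 24674 genes, 100 higher and 50 lower. Here and below, a called gene is one whose p in edgeR's quasi-likelihood test, fitted to all 21 libraries and adjusted by Benjamini-Hochberg, was under 0.05. The share called was 0.608% of the genes tested, 0.405% higher and 0.203% lower. The median log2 fold change over all tested genes was -0.01, with a median size of 0.22. Among the called genes it was 4.62 for those that were higher and -2.09 for those that were lower. The called rises were large: 75 of 100 were above 2 on the log2 scale, against 27 of 50 falls below -2. In whole corollas, fewer cells of a type and less RNA per cell cannot be told apart.

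**Figure D1:**
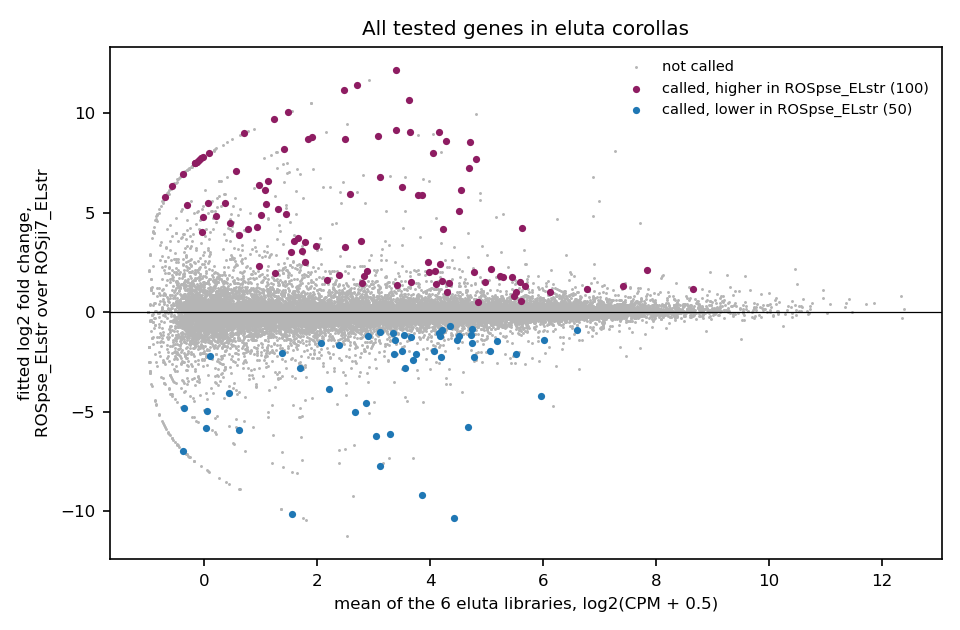
Each point is a tested gene, with its mean level in the 6 eluta libraries on the x axis, as log2(CPM + 0.5), and its fitted log2 fold change, ROSpse_ELstr over ROSji7_ELstr, on the y axis. The 100 called genes that were higher in ROSpse_ELstr reach further from 0 than the 50 that were lower, and most genes lie near 0.

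The number of calls depended on single libraries. It was 231 (99 higher and 132 lower) without ROSpse_ELstr replicate 1, 79 without its replicate 2 and 91 without its replicate 3. Leaving out ROSji7_ELstr replicate 1 or replicate 2 left 55 calls each time, 33 higher and 22 lower, and leaving out replicate 3 left 77. Of the 150 genes, 44 were called in each of these 6 fits, 28 of them higher and 16 lower in ROSpse_ELstr. In 22 genes, 16 higher and 6 lower, the call also held in every other setting tried. DESeq2 called 555 genes, 328 higher and 227 lower, and 149 of the 150 were among them.

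The sequence that carries the ROS locus, named ros_assembly in the authors' placement file, held 80 tested genes and 5 called ones. That is 6.25%, beside 0.608% over all genes. Of the 5, 1 was higher in ROSpse_ELstr and 4 were lower. The median log2 fold change over the 80 was -0.12, and 50 of them changed by less than 0.5 on the log2 scale in either direction. Groups did not overlap in 6 of the 80 genes upward and in 19 downward, beside 8.84% and 9.57% of all tested genes. The called genes were spread along the sequence among others that were not called.

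AnMG0000139000 (ros_assembly 295677 to 302251, minus strand) was the gene of that sequence called higher. It was at 74.4, 66.5 and 71.6 CPM in ROSpse_ELstr and at 25.8, 24.9 and 23.3 CPM in ROSji7_ELstr. The groups were far apart and each was tight. The log2 fold change was 1.52 ± 0.11 (SE; edgeR adjusted p = 2.64e-06), and the call held in every setting. ROSpse_elpse, the magenta genotype with the same ROS label, was at 57.8, 72.6 and 68.9 CPM, and the other 4 genotypes had between 20.8 and 30.6 CPM in every library. The high level was found in the 6 libraries labelled with the *pseudomajus* ROS allele and in none of the other 15, which include the 3 rosrec_elpse libraries, whose ROS allele is of *pseudomajus* in its downstream portion.

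AnMG0005277410 (50042 to 51379, minus strand) was nearly unread in ROSpse_ELstr, at 0.123, 0.0378 and 0.0730 CPM, against 14.4, 11.9 and 22.3 CPM in ROSji7_ELstr. Its log2 fold change was -7.71 ± 0.68 (edgeR adjusted p = 5.50e-05), called in every setting. ROSji7_elji7, the magenta genotype of stock JI7, was the other genotype with more than 1 CPM, at 5.50, 10.3 and 7.05. AnMG0000146600 (624419 to 626533, minus strand) was at 0.184, 0.189 and 0.219 CPM in ROSpse_ELstr and at 6.92, 7.83 and 30.8 CPM in ROSji7_ELstr. ROSji7_ELstr replicate 3 stood above its 2 fellows, and the groups did not overlap. The log2 fold change was -6.23 ± 0.93 (edgeR adjusted p = 0.00394), held in every setting. It was high also in the white rosdor_eldor, at 47.4, 32.5 and 9.47 CPM, and under 0.2 CPM in every library of ROSpse_elpse, rosrec_elpse and rosstr_ELstr.

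AnMG0000143300 (500322 to 501275, plus strand) was at 12.5, 17.2 and 22.2 CPM in ROSpse_ELstr and at 86.7, 67.7 and 68.2 CPM in ROSji7_ELstr, with a log2 change of -2.10 ± 0.28 (adjusted p = 0.00128 in edgeR). AnMG0005870400 (96590 to 97658, minus strand) was at 5.28, 5.06 and 4.23 CPM in ROSpse_ELstr and at 23.5, 18.8 and 20.9 CPM in ROSji7_ELstr. Its log2 fold change was -2.12 ± 0.43 (edgeR adjusted p = 0.0285). In both genes the ROSpse_ELstr libraries lay with those of ROSpse_elpse and of the white and pale genotypes, and ROSji7_ELstr with ROSji7_elji7. The call of AnMG0000143300 ended in the middle library series alone (edgeR adjusted p = 0.0646, range over alternatives 2.65e-10 to 0.0646). That of AnMG0005870400 ended without any 1 of the 6 libraries, within a range of 6.55e-05 to 0.143, while its log2 fold change stayed between -2.19 and -2.03.

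**Figure D2:**
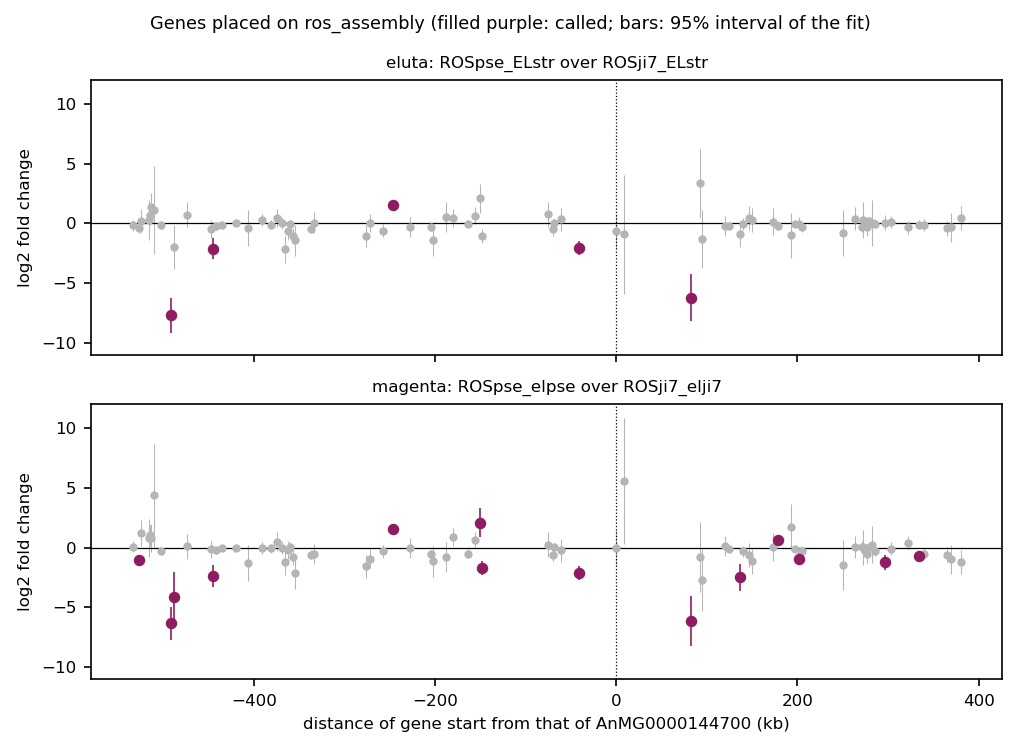
Log2 fold change of each tested gene placed on ros_assembly (y axis) by the distance of its start from that of AnMG0000144700 in kb (x axis), with the 95% interval of the fit as a bar. The upper panel is ROSpse_ELstr over ROSji7_ELstr and the lower panel ROSpse_elpse over ROSji7_elji7. Filled purple points are called genes, 5 in the upper panel and 14 in the lower, and the 5 point the same way in both.

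AnMG0000144700 (541660 to 544383, plus strand), a gene of ros_assembly that earlier results on these libraries named, was not called between the eluta genotypes. Its means elsewhere were 27.8 CPM in ROSpse_elpse, 27.6 in ROSji7_elji7, 24.6 in rosrec_elpse, 2.08 in rosstr_ELstr and 0.896 in rosdor_eldor. It was at 58.7, 29.7 and 32.7 CPM in ROSpse_ELstr and at 58.6, 57.8 and 77.7 CPM in ROSji7_ELstr, and the groups overlapped. The log2 fold change was -0.68 ± 0.69, with a 95% interval of -2.13 to 0.77 (edgeR adjusted p = 0.960). That interval spans a large fall and a moderate rise, so equal levels were not shown. AnMG0000140810 (714682 to 716427, minus strand) also overlapped, at 24.3, 12.7 and 17.4 CPM in ROSpse_ELstr and 13.9, 14.7 and 20.7 CPM in ROSji7_ELstr. Its log2 fold change was 0.14 ± 0.54, with a 95% interval of -1.0 to 1.28. AnMG0000140910 (720073 to 726464, plus strand) was at 32.6, 23.4 and 26.8 CPM in ROSpse_ELstr and at 31.7, 32.1 and 32.2 CPM in ROSji7_ELstr, a log2 change of -0.21 ± 0.18 that was not called (edgeR adjusted p = 0.917). Between ROSpse_elpse and ROSji7_elji7 it was called with the other sign, at 0.66 ± 0.18 (edgeR adjusted p = 0.0450). That call ended in 9 of 12 alternatives. AnMG0005279310 (121686 to 123759, plus strand) had 0 counts in all 6 eluta libraries and in both magenta genotypes. It was at 25.0 to 33.4 CPM in rosrec_elpse and 31.0 to 38.7 CPM in rosstr_ELstr.

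**Figure D3:**
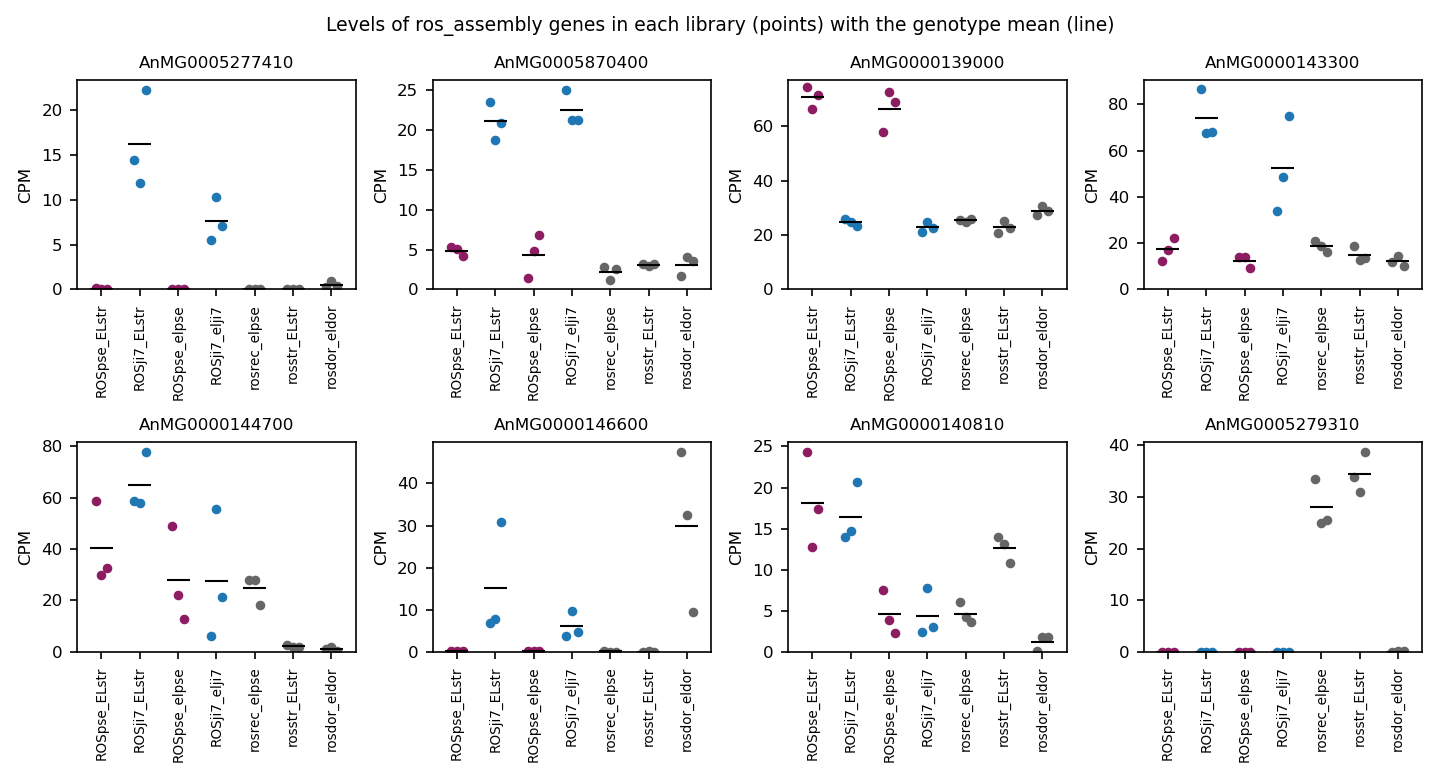
CPM (y axis, linear from 0, its own scale in each panel) of 8 genes placed on ros_assembly in every library, with a line at the mean of each genotype (x axis). Purple points are the genotypes labelled with the pseudomajus ROS allele, blue points those with the JI7 allele and grey points the pale and white genotypes. AnMG0000139000 is high in both purple groups, AnMG0005277410 in both blue groups, and AnMG0005279310 is at 0 in the 4 coloured groups.

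A gene with the neighbouring ID, AnMG0000144600, is placed on the separate sequence C8910231 (1415 to 4296, minus strand) and was chosen after its values were seen. It was at 12.8, 14 and 14 CPM in ROSpse_ELstr and at 52.8, 58.0 and 45.2 CPM in ROSji7_ELstr. The log2 fold change was -1.93 ± 0.15 (edgeR adjusted p = 4.82e-06), called in every setting. In the magenta pair the fold change was the same to 2 decimals, -1.93. ROSji7_elji7 had 54.6, 60.2 and 52.2 CPM, and every library outside the 2 JI7 genotypes had 16.8 CPM or less.

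The genes with the highest levels among the called ones were chosen by TPM, a level scaled by transcript length and library size. AnMG0000420200 (scaffold460 962438 to 963902, plus strand) had a mean of 819 TPM in ROSpse_ELstr and 388 TPM in ROSji7_ELstr. In CPM it was at 654, 466 and 563 in ROSpse_ELstr and at 249, 253 and 238 in ROSji7_ELstr, a log2 change of 1.19 ± 0.22 (edgeR adjusted p = 0.0171). The groups did not overlap, but the call ended in the middle series alone, without any 1 ROSji7_ELstr library and without ROSpse_ELstr replicate 3 (edgeR adjusted p up to 0.135, range from 3.89e-05). AnMG0003622700 (scaffold1320 471815 to 472687, plus strand) was at 431, 335 and 351 CPM in ROSpse_ELstr and at 75.0, 64.1 and 121 CPM in ROSji7_ELstr. Its log2 fold change was 2.10 ± 0.36 (edgeR adjusted p = 0.00905), a call that ended without ROSji7_ELstr replicate 1 or replicate 2 (range 1.50e-06 to 0.0852).

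AnMG0005168410 (scaffold186 81647 to 82207, plus strand) was at 181.6, 49.9 and 46.7 CPM in ROSpse_ELstr and at 3.63, 3.52 and 7.36 CPM in ROSji7_ELstr. ROSpse_ELstr replicate 1, the library that stood apart on the first component, had more than 3 times the level of its fellows. The log2 fold change was 4.26 ± 0.85 (edgeR adjusted p = 0.0264). Without that library the call ended, as it did without any 1 ROSji7_ELstr library and in the fit of the compared groups alone, and the log2 fold change ranged from 3.33 to 4.69 (edgeR adjusted p 1.85e-06 to 0.176). AnMG0001848500 (scaffold228 49497 to 50622, plus strand) was the most abundant called gene that was lower. It was at 10.6, 6.20 and 2.41 CPM in ROSpse_ELstr and at 121, 146 and 88.0 CPM in ROSji7_ELstr, a log2 change of -4.22 ± 0.68 (edgeR adjusted p = 0.00678) that was called in every setting. The pale rosrec_elpse was higher still, at 173, 219 and 327 CPM, and rosstr_ELstr had 5.79 to 21.6 CPM. ROSpse_elpse was at 48.9, 118 and 117 CPM and ROSji7_elji7 at 185, 118 and 85.9 CPM. None of the 4 genes chosen by TPM was called in this magenta pair. Their log2 fold changes there were, in the order given, 0.12, -0.63, 1.55 and -0.45.

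Some of the large differences were in genes read in one genotype and nearly absent in the other. With "on" taken as at least 1 CPM in each of 3 libraries and "off" as at most 3 counts over the other group, 34 genes were on in ROSpse_ELstr and off in ROSji7_ELstr (0.138% of those tested), and 10 were the other way round (0.0405%). Of these, 16 and 3 were called. The total of 44 was 97 without ROSpse_ELstr replicate 1, 45 on in ROSpse_ELstr and 52 on in ROSji7_ELstr. Each limit was then asked of 2 ROSpse_ELstr libraries, which is looser, so all 44 had to be among the 97. With off taken as 0 counts, 16 genes were left.

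Among genes that were higher, AnMG0003632610 (scaffold272 183206 to 186721, plus strand) was at 11.4, 17.8 and 31.1 CPM in ROSpse_ELstr and had 0 counts in all 3 ROSji7_ELstr libraries. Set against 3 counts in the whole group as a floor, this was at least 704-fold higher (edgeR adjusted p = 0.0208). AnMG0907874610 (scaffold1591 11094 to 12473, plus strand) was at 31.7, 19.6 and 20.0 CPM in ROSpse_ELstr, against 0, 0 and 0.0279 CPM in ROSji7_ELstr. The ratio was 2216, with a 95% counting interval of 397 to 87582 (edgeR adjusted p = 0.0189). Both calls ended without any 1 ROSji7_ELstr library, that of AnMG0003632610 also without ROSpse_ELstr replicate 2 or 3 (adjusted p up to 0.105, range from 1.29e-08) and that of AnMG0907874610 in the middle series (up to 0.207, range from 6.66e-07). Counting intervals and floors cover counting error only, and a fitted fold change of a gene at 0 depends on the prior count of the fit.

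AnMG0005049300 (scaffold218 248258 to 250506, minus strand) was at 7.37, 9.30 and 19.7 CPM in ROSpse_ELstr and at 0 in ROSji7_ELstr, at least 423-fold higher (edgeR adjusted p = 0.0140, ended without any 1 ROSji7_ELstr library, range 3.74e-09 to 0.0882). AnMG0307021800 (scaffold1274 365125 to 365527, plus strand) was at 2.76, 2.49 and 5.80 CPM in ROSpse_ELstr and at 0 in ROSji7_ELstr, at least 126-fold higher (edgeR adjusted p = 9.20e-05). It was called in every setting, and it lies within the span of another gene on the same strand, so their reads may not be separable. AnMG0507276300 (scaffold2105 29749 to 43910, minus strand) was at 0.307, 5.74 and 7.81 CPM in ROSpse_ELstr and at 0 in ROSji7_ELstr, at least 173-fold higher (edgeR adjusted p = 0.0299), and overlaps another gene. Its lowest ROSpse_ELstr library was far below the other 2, and its call ended in 5 of the 6 fits that left out a library (range 1.80e-05 to 0.135).

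Genes that were lower included AnMG0004433810 (scaffold205 172858 to 173466, minus strand), with 0 counts in all 3 ROSpse_ELstr libraries and 4.92, 4.28 and 5.49 CPM in ROSji7_ELstr. It was at least 115-fold lower (edgeR adjusted p = 0.0237) and had 0 counts in the other 15 libraries too. It passed the low-count filter only through ROSji7_ELstr, the group where it is high, so its p-value is no separate support. As it is read in 3 libraries of the series, the low-count filter dropped it whenever a ROSji7_ELstr library was left out, and the call ended in DESeq2 and without ROSpse_ELstr replicate 2 or 3 (range 0.0120 to 0.673). AnMG0306721800 (scaffold1589 156857 to 160831, minus strand) was at 0.123, 0.0378 and 0 CPM in ROSpse_ELstr and at 24.5, 26.2 and 33.1 CPM in ROSji7_ELstr. The ratio was 659-fold lower, with a 95% counting interval of 225 to 3196 (edgeR adjusted p = 0.0140; ended in the middle series and without ROSpse_ELstr replicate 2 or 3, range 1.82e-07 to 0.192).

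AnMG0008594500 (scaffold776 28223 to 31962, plus strand) was an on-off gene that was not called. It had 0 counts in ROSpse_ELstr and 6.51, 6.64 and 4.77 CPM in ROSji7_ELstr, at least 138-fold lower (edgeR adjusted p = 0.190). In ROSpse_elpse it was at 46.6, 0.0418 and 0.0310 CPM, so plants of 1 genotype differed widely.

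Called genes lay on 93 of the 1316 sequences with tested genes, 64 of which held 1 called gene, while 13 held 3 or more. Scaffold460 held the most, 9 of 89 tested genes (10.1%), all 9 higher in ROSpse_ELstr and spread over 828 kb. Beside AnMG0000420200, these were chosen after their values were seen. AnMG0000423700 (767047 to 784610, minus strand) was at 7.49, 6.73 and 16.5 CPM in ROSpse_ELstr and at 0, 0.0329 and 0.0279 CPM in ROSji7_ELstr. The ratio was 526, with a 95% counting interval of 145 to 4354 (edgeR adjusted p = 8.39e-05). AnMG0000421600 (884165 to 888263, plus strand) was at 8.90, 10.1 and 14.1 CPM in ROSpse_ELstr and at 2.66, 2.63 and 2.59 CPM in ROSji7_ELstr, a log2 change of 2.07 ± 0.25 (edgeR adjusted p = 0.000454). Together with AnMG0000432900 (ratio 204, 95% counting interval 36.1 to 8127) and AnMG0001178000 (log2 fold change 4.47 ± 0.69), these 4 were called in every setting. The remaining 4, AnMG0000421700, AnMG0000422000, AnMG0000433100 and AnMG0000433400, each lost the call without any 1 ROSji7_ELstr library.

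Scaffold1274 held 5 called genes among 64 tested, all higher in ROSpse_ELstr. AnMG0307021400 (362802 to 369006, plus strand) was at 38.9, 37.5 and 59.9 CPM in ROSpse_ELstr and at 0.532, 0.559 and 0.781 CPM in ROSji7_ELstr. The log2 fold change was 6.17 ± 0.44 (edgeR adjusted p = 2.38e-06), called in every setting, and the gene spans AnMG0307021800. AnMG0307021200, which starts 3′ of it at 369013, was at 7.92, 8.13 and 11.8 CPM in ROSpse_ELstr and at 0.626, 1.18 and 1.03 CPM in ROSji7_ELstr, with a log2 change of 3.29 ± 0.44 and a call that ended in the middle series (edgeR adjusted p = 0.00128, range 1.59e-12 to 0.0658). In these genes ROSji7_elji7 was as low as ROSji7_ELstr, with means of 0.765 CPM for AnMG0307021400 and 1.23 CPM for AnMG0307021200, and the other 4 genotypes were high.

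By share of tested genes called, with at least 10 tested, scaffold28 (2 of 10) and scaffold272 (3 of 19) came first. On scaffold28, AnMG0005481210 (112112 to 117868, plus strand) was at 20.1, 27.9 and 48.1 CPM in ROSpse_ELstr and at 0.125, 0.0658 and 0.167 CPM in ROSji7_ELstr, a log2 change of 7.99 ± 1.37 (edgeR adjusted p = 0.00998). AnMG0004995700 (215093 to 219969, minus strand) was lower, at 13.3, 16.3 and 15.8 CPM in ROSpse_ELstr and 24.9, 22.6 and 26.8 CPM in ROSji7_ELstr, with a log2 change of -0.71 ± 0.13 (edgeR adjusted p = 0.0140). The groups were apart in both genes, by very different amounts.

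On scaffold272, AnMG0002194110 (185649 to 189748, plus strand) overlaps AnMG0003632610 and is placed on another sequence as well. It was at 14.8, 18.4 and 30.7 CPM in ROSpse_ELstr and at 0.250, 0.230 and 0.307 CPM in ROSji7_ELstr, a log2 change of 6.32 ± 1.08. AnMG0004058600 (94601 to 96579, plus strand) was at 7.12, 2.80 and 6.31 CPM in ROSpse_ELstr and 0.313, 0.493 and 0.558 CPM in ROSji7_ELstr, a log2 change of 3.55 ± 0.74. The calls of AnMG0005481210, AnMG0002194110 and AnMG0004058600 each ended without any 1 ROSji7_ELstr library, at adjusted p up to 0.0895, 0.0857 and 0.188 (ranges from 2.25e-11, 4.00e-10 and 5.72e-05). AnMG0004058600 also lost it without ROSpse_ELstr replicate 1 or 3, and AnMG0004995700 without ROSji7_ELstr replicate 1 or 3, in the middle series and in the fit of the compared groups alone (up to 0.324, range from 3.42e-06).

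On scaffold593, all 3 called genes of 92 tested were lower and lay within a few kb of each other. AnMG0005865600 (28385 to 31453, plus strand) was at 0.184, 0.567 and 0.803 CPM in ROSpse_ELstr and at 7.17, 7.93 and 7.98 CPM in ROSji7_ELstr, a log2 change of -3.84 ± 0.58 (edgeR adjusted p = 0.00394; ended in the middle series, range 6.47e-11 to 0.102). AnMG0005864900 (37534 to 42200, minus strand) was at 14.2, 9.64 and 10.4 CPM in ROSpse_ELstr and at 24.2, 24.5 and 21.9 CPM in ROSji7_ELstr, a log2 change of -1.05 ± 0.21 (edgeR adjusted p = 0.0242). That call ended in the middle series, in the fit of the compared groups alone, without any 1 ROSji7_ELstr library and without ROSpse_ELstr replicate 2 or 3 (range 0.000187 to 0.154). These genes and AnMG0005865300 between them were lower in the magenta pair too, and rosdor_eldor lay with the JI7 genotypes in each of them. They were chosen after their values were seen, as were those of the next sequence.

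On scaffold451, all 4 called genes of 58 tested were higher in ROSpse_ELstr, and here the genotype that resembled it was rosstr_ELstr. AnMG0005038400 (728264 to 730884, plus strand), called in every setting, was at 17.5, 30.4 and 29.1 CPM in ROSpse_ELstr and at 4.63, 4.18 and 4.43 CPM in ROSji7_ELstr, a log2 change of 2.54 ± 0.41 (edgeR adjusted p = 0.00627). It was at 18.2, 32.8 and 17.9 CPM in rosstr_ELstr and at 2.93 to 5.60 CPM in every library of ROSpse_elpse, ROSji7_elji7 and rosrec_elpse. In rosdor_eldor, the plants of families A174 and A182 had 14.7 and 19.3 CPM and the plant of family A181 had 4.43. A174 is also the family of ROSpse_ELstr, A182 that of rosstr_ELstr and A181 that of ROSpse_elpse, so in these plants level went with family. The A181 plant's library was also of the low number series, with 8925834 estimated reads and a first component of 111, and the other 2 were of the middle series, so family, series and depth cannot be told apart there. AnMG0005037700 (747540 to 766830, minus strand) had the same order, with 1.66, 3.40 and 4.42 CPM in ROSpse_ELstr and 0, 0.0329 and 0.0837 CPM in ROSji7_ELstr, and 1.81 and 1.72 against 0 CPM in those rosdor_eldor plants. Its call (edgeR adjusted p = 0.0140) ended without ROSji7_ELstr replicate 1 or 2 (range 9.01e-06 to 0.105).

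The pair most like this one set ROSpse_elpse, with the *pseudomajus* alleles at both loci, against ROSji7_elji7, with the JI7 alleles at both, in magenta corollas with recessive EL. It shares no library with the eluta pair. In it 1140 genes were called, 610 higher and 530 lower in ROSpse_elpse, which is 4.62% of those tested (2.47% and 2.15%). Both pairs called 51 genes in the same direction, 40 higher and 11 lower, which is 34.0% of the eluta calls and 4.47% of the magenta calls, and 11 in opposite directions. Of the 150 genes called in the eluta pair, 106 had the same sign in the magenta pair and 88 were not called there. All 5 genes called on ros_assembly were called in the same direction in the magenta pair, where 14 of the 80 (17.5%) were called. Their log2 fold changes there were 1.54 for AnMG0000139000, -6.33 for AnMG0005277410, -6.16 for AnMG0000146600, -2.09 for AnMG0000143300 and -2.37 for AnMG0005870400. The other 9 called in the magenta pair alone had eluta log2 fold changes of -2.01 to 2.10, 7 of them of the same sign, with edgeR adjusted p of 0.136 or more.

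Across all 24674 genes the log2 fold changes of the pairs were weakly correlated (Pearson 0.237, Spearman 0.279), and across the 150 genes more so (Pearson 0.532, Spearman 0.457). These are across genes, which are not independent replicates. The 150 were picked by their eluta changes, which can by itself raise a correlation, and this was not tested. The number of shared calls was 20 without ROSji7_ELstr replicate 1 or 2 and 23 without its replicate 3. Of the 22 genes called in every setting in the eluta pair, 13 were called in the same direction in the magenta pair. They included AnMG0001181400 (scaffold1539 41707 to 44231, minus strand), which was at 6.08, 7.33 and 6.13 CPM in ROSpse_ELstr and at 0, 0 and 0.0279 CPM in ROSji7_ELstr. AnMG0001597300 (scaffold1515 253717 to 256140, minus strand) was at 3.87, 3.97 and 7.01 CPM in ROSpse_ELstr and at 0.344, 0.526 and 0.251 CPM in ROSji7_ELstr, with log2 fold changes of 3.72 in the eluta pair and 4.05 in the magenta pair. Both were picked with their values in view.

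**Figure D4:**
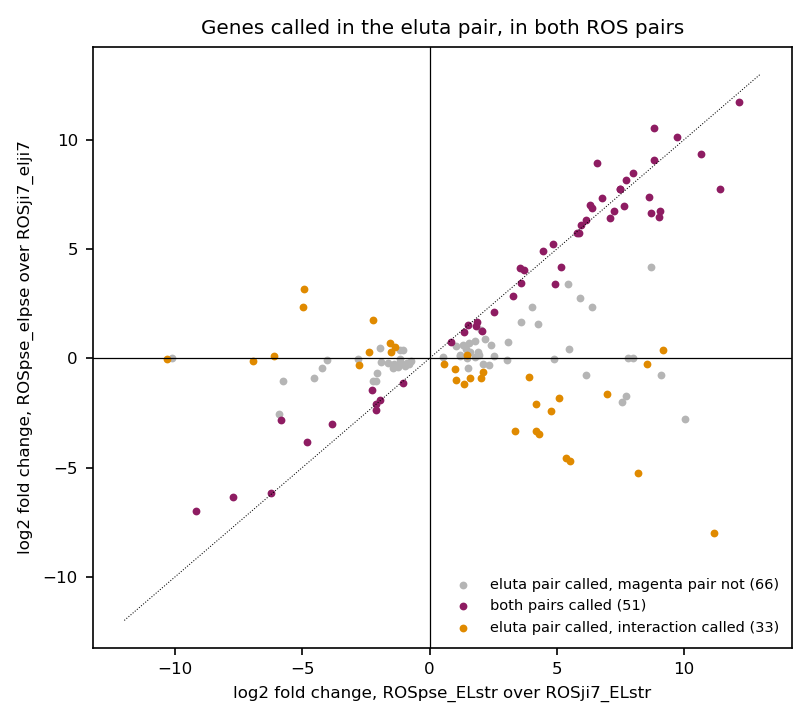
Log2 fold changes of the 150 genes called in the eluta pair (x axis, ROSpse_ELstr over ROSji7_ELstr) and the same genes in the magenta pair (y axis, ROSpse_elpse over ROSji7_elji7), with a dotted line where both are equal. Purple points are the 51 genes called in the same direction in both pairs, orange points the 33 called in the interaction and grey points the rest. Purple points lie near the line, and orange points lie near 0 on the y axis or in the opposite quadrants. The calls that set the colours favour these places, so the pattern is partly built in.

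The difference between the pairs was itself tested as an interaction, the eluta fold change minus the magenta one. It called 122 genes (0.494%), 64 with a positive and 58 with a negative difference, and 33 of them were among the 150. None of the 51 genes shared in direction was among these calls in edgeR (2 at an unadjusted p under 0.05, and 0 called by DESeq2). None of the 80 genes on ros_assembly was called in it by edgeR either (10 at an unadjusted p under 0.05, and 1 called by DESeq2). All 11 genes called in opposite directions were called in it. The 51 and the 11 were picked by the same fold changes that the interaction compares. Their selection therefore largely set both outcomes, which are no separate support. Of the 11 among all 24674 tested genes, 3 lay on scaffold1088 (112 tested), 3 on scaffold383 (34 tested) and 2 on scaffold1195 (118 tested). On these sequences the magenta pair called 22, 13 and 33 genes.

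AnMG0000378900 (scaffold383 320431 to 322649, plus strand) was at 2.82, 1.55 and 2.48 CPM in ROSpse_ELstr and at 0.0939, 0.164 and 0.112 CPM in ROSji7_ELstr. In the magenta pair the order was the other way round, with 0.0469, 0.251 and 0.0931 CPM in ROSpse_elpse and 0.909, 1.77 and 1.36 CPM in ROSji7_elji7. The interaction was 7.50 ± 0.73 on the log2 scale (edgeR adjusted p = 0.000152). AnMG0004746500 (scaffold1088 652705 to 654015, plus strand) was at 1.04, 1.66 and 1.97 CPM in ROSpse_ELstr and 0.0313, 0 and 0.0558 CPM in ROSji7_ELstr, against 0.0938, 0.167 and 0.155 CPM in ROSpse_elpse and 7.13, 1.33 and 3.00 CPM in ROSji7_elji7. In both genes ROSji7_ELstr and ROSpse_elpse were low and every library of the other 5 genotypes was higher.

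AnMG0004721500 (scaffold1088 152738 to 156027, plus strand; it overlaps 2 genes) was turned the other way, at 5.83, 6.54 and 6.39 CPM in ROSpse_ELstr and 37.2, 24.4 and 25.9 CPM in ROSji7_ELstr, with 42.2, 26.1 and 29.6 CPM in ROSpse_elpse and 13.9, 9.69 and 5.65 CPM in ROSji7_elji7. The interaction was -3.97 ± 0.49 (edgeR adjusted p = 0.000942). On scaffold1195, 118 genes were tested and 2 were called (1.69%, median log2 fold change -0.05), where the magenta pair called 33. Those 2 are neighbours with the same pattern. AnMG0001025400 (1288179 to 1291344, minus strand) was at 207, 251 and 271 CPM in ROSpse_ELstr and at 100, 96.0 and 91.3 CPM in ROSji7_ELstr, a log2 change of 1.34 ± 0.21. In the magenta pair it averaged 83.2 ± 13.0 CPM in ROSpse_elpse and 188 ± 18.8 CPM in ROSji7_elji7 (SD, n = 3). AnMG0001025500 (1295014 to 1299586, plus strand) averaged 25.7 CPM in ROSpse_ELstr and 12.5 CPM in ROSji7_ELstr, and 11.1 CPM in ROSpse_elpse and 22.2 CPM in ROSji7_elji7. Its call ended in the middle series and in the fit of the compared groups alone (range 2.40e-07 to 0.0926).

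AnMG0000646800 (scaffold699 482048 to 483452, plus strand), the other gene with the smallest p for a negative interaction, did not separate the eluta genotypes, at 14.7, 21.5 and 21.8 CPM in ROSpse_ELstr and 21.6, 22.5 and 14.9 CPM in ROSji7_ELstr. It separated the magenta genotypes, with 35.6, 33.5 and 32.7 CPM in ROSpse_elpse and 7.00, 9.61 and 10.1 CPM in ROSji7_elji7. Genes called in the eluta pair and not called in the magenta pair included a neighbouring pair on scaffold194. AnMG0407381800 (133189 to 134402, minus strand) was at 25.1, 21.1 and 14.1 CPM in ROSpse_ELstr and at 0, 0 and 0.0837 CPM in ROSji7_ELstr, a ratio of 631 with a 95% counting interval of 215 to 3063 (edgeR adjusted p = 0.00372). Its magenta log2 fold change was 0.38, with a 95% interval of -1.44 to 2.20, so equal levels were not shown there. AnMG0407381900 (135037 to 139749, plus strand) was at 61.7, 58.9 and 33.4 CPM in ROSpse_ELstr and at 0.0313, 0.132 and 0.223 CPM in ROSji7_ELstr, with a log2 change of 8.56 ± 1.21. Means in the other 5 genotypes were 4.00 to 8.00 CPM for the first and 12.0 to 25.5 CPM for the second, all above the ROSji7_ELstr mean. Single plants were low for the first gene too, at 0.253 CPM in rosdor_eldor replicate 1 and 0.822 CPM in rosrec_elpse replicate 1.

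AnMG0207956200 (scaffold663 217406 to 221243, minus strand) was at 0, 0 and 0.0730 CPM in ROSpse_ELstr and at 43.2, 59.5 and 23.2 CPM in ROSji7_ELstr. The ratio was 1436-fold lower, with a 95% counting interval of 397 to 11863 (edgeR adjusted p = 0.0140; ended in the middle series and without ROSpse_ELstr replicate 2 or 3, range 4.61e-07 to 0.126). AnMG0000524600 (scaffold1047 110939 to 123645, minus strand; it overlaps 2 genes) was at 0.307, 0.302 and 0.182 CPM in ROSpse_ELstr and at 22.5, 21.8 and 10.6 CPM in ROSji7_ELstr, a log2 change of -6.11 ± 0.81 (edgeR adjusted p = 0.00128). The 2 genes are on different sequences and shared a pattern over the other libraries. Both were low in rosstr_ELstr and rosdor_eldor and high in ROSpse_elpse and rosrec_elpse, and in ROSji7_elji7 replicate 3 stood far below its fellows, at 0.105 CPM for AnMG0207956200 and 1.12 CPM for AnMG0000524600. The call of AnMG0000524600 ended in the middle library series (edgeR adjusted p = 0.0609, range 5.92e-14 to 0.0609).

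AnMG0907197600 (scaffold527 240073 to 240471, minus strand) was at 7.12, 10.9 and 12.3 CPM in ROSpse_ELstr and at 0 in ROSji7_ELstr, at least 346-fold higher (edgeR adjusted p = 0.0434). Its call ended without any 1 of the 6 libraries and in the middle series (range 0.0120 to 0.169). No other genotype had more than 1.36 CPM, and the highest of them was ROSji7_elji7, with 1.36, 0.700 and 1.29 CPM.

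For each of the 150 genes, the mean log2 level of each other genotype was set beside the midpoint of ROSpse_ELstr and ROSji7_ELstr, a description chosen after the values were seen. The white rosstr_ELstr lay on the ROSpse_ELstr side in 122 of the 150 genes, rosdor_eldor in 106, ROSpse_elpse in 79, rosrec_elpse in 77 and ROSji7_elji7 in 29. Of these, ROSpse_elpse has the same ROS label as ROSpse_ELstr, and the white genotypes carry recessive ros alleles of other sources. The 150 genes were picked by the same groups that set the midpoint. The same count was not made over all tested genes, so these counts have no background to be read against. As the midpoint is on a log2 scale, a modest level passed it where ROSji7_ELstr was nearly unread. In 45 genes, 40 higher and 5 lower in ROSpse_ELstr, ROSji7_elji7 lay with ROSji7_ELstr and all 4 others with ROSpse_ELstr. In 8 genes ROSji7_ELstr stood alone and in 9 ROSpse_ELstr did. The rosdor_eldor plants of families A174, A182 and A181 were on the ROSpse_ELstr side in 115, 112 and 87 genes; the last is the low-series library of 8925834 reads.

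**Figure D5:**
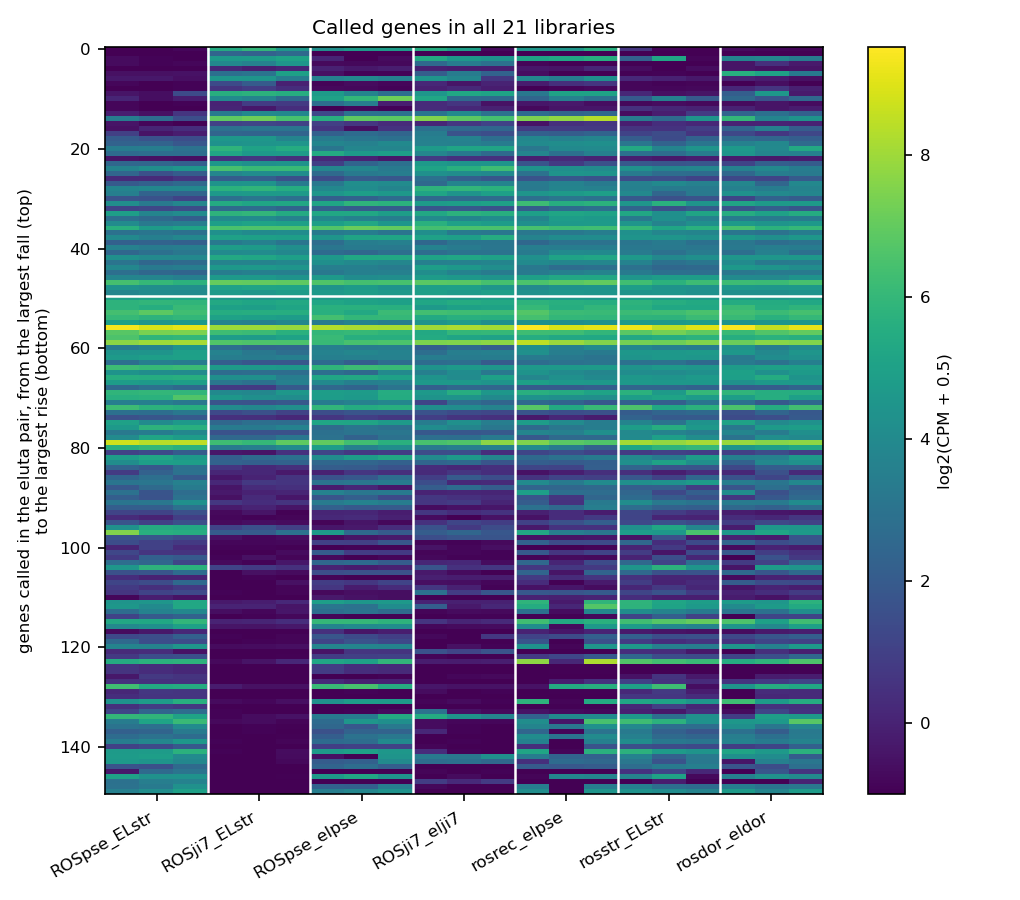
Level of the 150 called genes (rows, from the largest fall at the top to the largest rise at the bottom, with a white line between lower and higher genes) in all 21 libraries (columns, 3 per genotype), as log2(CPM + 0.5) in colour. In the lowest rows, ROSji7_ELstr and many rows of ROSji7_elji7 are dark, near 0 CPM, while the other genotypes are lighter.

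Of the 34 genes on in ROSpse_ELstr and off in ROSji7_ELstr, 19 were on also in ROSpse_elpse, 15 in rosdor_eldor, 13 in rosstr_ELstr, 8 in rosrec_elpse and 5 in ROSji7_elji7. Off were 16 in ROSji7_elji7, 8 in rosrec_elpse, 3 each in ROSpse_elpse and rosstr_ELstr and 0 in rosdor_eldor. Of the 10 genes on in ROSji7_ELstr, 2 were on and 6 off in ROSji7_elji7, and 2 were on and 1 off in ROSpse_elpse. In rosrec_elpse, 3 of the 10 were on and 6 off, in rosdor_eldor 1 and 5, and in rosstr_ELstr 0 and 6. Shares of all tested genes on or off in each genotype were not counted. The magenta pair had 45 genes on in ROSpse_elpse and off in ROSji7_elji7 and 8 the other way round, 11 and 0 of them shared with the eluta pair. In rosrec_elpse, replicate 2 was at 0 for AnMG0003632610 and AnMG0005049300, where its fellows had 17.4 and 21.3 CPM and 10.9 and 10.5 CPM. It was also low for AnMG0005481210 (55.8, 0.0577 and 42.8 CPM) and AnMG0002194110 (17.3, 0.115 and 23.7 CPM). AnMG0907874610 was at 0.0548, 14.1 and 13.1 CPM in rosrec_elpse and at 12.6, 32.7 and 0.106 CPM in rosstr_ELstr. AnMG0306721800 was at 4.32, 36.9 and 0.0528 CPM in rosstr_ELstr. In these genes, sister plants of 1 genotype and family differed as the eluta genotypes did. Other named genes did not, such as AnMG0307021800 at 3.51, 3.17 and 3.70 CPM in rosrec_elpse.

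Some counts cannot be assigned to a single gene. Of the 150 called genes, 33 overlap another gene on the same strand and 6 are placed on several sequences, and whether the authors' counting used strand is not given in the sources used here. AnMG0005275600 and AnMG0000994800 are placed at the same positions of scaffold202 (4061 to 5825), have equal values in every library and may be copies of 1 gene. They averaged 0.786 CPM in ROSpse_ELstr and were at 0 in ROSji7_ELstr. All libraries were counted on the same transcript set. Whether reads from alleles of each source were assigned to it equally well was not tested. Levels near 0 are therefore levels of assigned reads.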

How the data were processed

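Corolla RNA of 21 snapdragon plants of 7 genotypes was sequenced as 50 bp single-end reads, 1 library per plant per the labels. The submitters' processing notes name cutadapt 1.16, Salmon 0.9.1 and DESeq2, with no role or order. The authors deposited an estimated count (expected count) per transcript, not normalised, and a TPM value, which Salmon brings to an equal total for every library; TPM entered no test. Their placement file gives positions on the assembly JICv1, per its name, and an exonerate score; the authors' score only chose the best placement per gene, ties going to the first sequence by name. Coordinates are 1-based.

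Counts of the 51926 transcripts were added up over 37234 genes, by the ID without its transcript suffix, and rounded. The 24674 genes tested reached 0.5 CPM in 3 or more libraries. The test was edgeR 4.0.16 (limma 3.58.1, R 4.3.3), with TMM, 1 mean per genotype over all 21 libraries and a biological coefficient of variation of 0.400. SEs are the absolute log2 fold change over the square root of F. A call is an adjusted p under 0.05. The procedure was tested on simulated data, in which only genes above the median level were changed. The simulation switched no gene off in a group and set no library apart, so it does not cover those cases. P-values measure the spread between plants within genotypes, each of 1 family except rosdor_eldor with 3, and totals of 17763434 to 34105664 estimated reads set the counting precision.

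Named genes were the 6 largest rises and 6 largest falls among called genes with no overlap and at least 1 CPM in the higher group, the 3 highest on-off genes each way, the 4 called genes of highest TPM, called genes and 4 others on ros_assembly, the 3 each way called in both pairs with the largest smaller change, the 2 each way with the smallest interaction p, and up to 3 on each of the 2 sequences with the largest share called. The text marks others as picked after seeing their values. The members, lists and rules were chosen with earlier results of these data known. Alternatives were DESeq2 1.42.0, its size factors in edgeR, no filter, only the groups compared, library number series as a term, the middle series alone, a threshold of 0.01, other on-off limits and each library left out.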

Additional observations from a re-analysis of the deposited data

Results flagged for a closer look

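The values below are named genes in which the difference between ROSpse_ELstr and ROSji7_ELstr was itself unlike that between ROSpse_elpse and ROSji7_elji7, by the interaction term in edgeR (adjusted p under 0.05). Each is the eluta log2 fold change minus the magenta one. AnMG0000378900 gave 7.50 (adjusted p = 0.000152), AnMG0004746500 10.23 (0.000152), AnMG0004721500 -3.97 (0.000942) and AnMG0000646800 -1.95 (0.00269), and these held in each of the 18 alternatives. AnMG0000524600 gave -6.21 (0.0114), which ended in the middle library series alone (0.134, the highest of a range from 1.38e-07).

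The other 5 ended in several of the fits that left out a library. AnMG0003622700 gave 2.73 (adjusted p = 0.0218) and ended in 6 of 18 alternatives, among them without ROSji7_ELstr replicate 1 or 2, ROSpse_ELstr replicate 2 or ROSpse_elpse replicate 2 (range 2.88e-05 to 0.0776). AnMG0407381800 gave 8.81 (0.0218) and ended in 5 of 18, without ROSji7_ELstr replicate 1 or 2, ROSpse_ELstr replicate 2 or ROSpse_elpse replicate 1 or 2 (range 1.22e-06 to 0.0800). AnMG0207956200 gave -10.28 (0.0443) and ended in 13 of 18 (range 0.000503 to 0.190), in every leave-out except that of ROSji7_elji7 replicate 3. AnMG0907197600 gave 19.17 (0.0247) and ended in 8 of 18 (range 0.00136 to 0.122), and AnMG0008594500 gave -22.21 (0.0390) and ended in 11 of 16 (range 0.0150 to 0.189). Without ROSpse_elpse replicate 1, the 1 library of that genotype with more than 1 CPM of AnMG0008594500 (46.6 CPM, against 0.0418 and 0.0310), the difference was -13.62. The last 2 genes have groups with 0 counts, so the size of their difference depends on the prior count of the fit.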

How the results depend on the processing

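The 39 named genes that were called kept their direction in every alternative that tested them; 15 kept the call in all of them and 19 in every leave-out. Family and genotype cannot be separated in any fit. DESeq2 called 555 genes in the eluta pair, 2960 in the magenta pair, 644 in the interaction, 136 in both pairs in the same direction and 9 on ros_assembly. With library series as a term the eluta count was 231. In the middle series alone it was 100, with 67 of the 150 among them, and the magenta, interaction, named and on-off counts were 518, 45, 25 and 121. The fit of the compared groups alone called 275 genes in the magenta pair. At a threshold of 0.01 the counts were 51 for the eluta pair, 125 for the magenta pair, 14 for the interaction and 19 for both pairs. On-off genes numbered 26 at 2 CPM and 16 with off as 0 counts.

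Leaving out 1 library gave 55 to 231 eluta calls, 316 to 1298 magenta calls, 22 to 165 interaction calls, 20 to 48 shared calls, 4 calls on ros_assembly each time, 21 to 35 named calls and 49 to 97 on-off genes. Genes placed on 1 sequence only, an alternative chosen after seeing the data, left 144 eluta calls. DESeq2's size factors within edgeR gave 150 calls, and no filter gave 131. No paired analysis was possible because replicate numbers follow the order of deposit and pair no plants across genotypes. Genes near 0 in a group are limited by depth, as 1 read in the shallowest library of 17763434 reads is a coarse step.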
